A study of Mus musculus with 12 samples.

Results

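Expression of 10 genes of bone morphogenetic protein (BMP) signalling was examined in ImPSC-1, a line of mouse pancreatic mesenchymal cells. The genes were the ligands Bmp2, Bmp4 and Bmp6, the secreted ligand inhibitor Grem1, the coreceptor Eng (endoglin), the inhibitory SMADs Smad6 and Smad7, and the target genes Id1, Id2 and Id3. They were taken by gene name from a table of raw read counts that held 49671 genes. Each name matched 1 gene, and all 10 were among the 15271 genes with enough counts to be tested. Sequencing of poly(A) RNA gave 12 libraries, 3 from each of 4 stable derivatives of the line. Kitl_OE cells overexpressed Kitl, the gene of stem cell factor, and Egfp_OE cells overexpressed Egfp as their control. shKitl cells carried a hairpin for Kitl knockdown, and shCtrl cells a control hairpin and the genotype label WT. All cells grew in DMEM with 10% serum, and no group received another treatment. Neither the number of clones behind each derivative nor separate cultures for the 3 replicates are stated in the labels. The p-values therefore rest on a spread between replicates that may be only technical. Each description ends in a P number, whose meaning is not given: 18, 19 and 20 in Kitl_OE, 17, 18 and 19 in Egfp_OE, 13, 14 and 15 in shKitl, and 14, 15 and 16 in shCtrl, in the order of replicates 1, 2 and 3.

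As background, BMPs are secreted dimers of the TGF-beta family. They bind pairs of serine/threonine kinase receptors, which phosphorylate SMAD1, SMAD5 and SMAD9; these join SMAD4 in the nucleus and switch on target genes, among them the Id genes and the feedback inhibitors Smad6 and Smad7. Gremlin 1 binds BMP2 and BMP4 outside the cell and keeps them from their receptors. Endoglin is a membrane glycoprotein that assists the receptor ALK1 (gene Acvrl1) and is best known from endothelium, but mesenchymal cells carry it too. ID proteins have a helix-loop-helix domain but no basic DNA-binding region, and hold back basic helix-loop-helix factors by pairing with them.

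Libraries held 24979742 to 33517686 counts in genes. Kitl, given in CPM (read counts relative to library size), stood at 125, 114 and 128 in Kitl_OE, against 72.4, 31.8 and 72.2 in Egfp_OE. It stood at 25.1, 25.5 and 30.3 CPM in shKitl, against 73.4, 73.5 and 76.3 in shCtrl. Egfp_OE replicate 2, the low one, also had the largest share of ERCC spike-in RNA, 1.35% of its counts against 0.446% to 0.684% in the other libraries. The mesenchymal markers Col1a1, Col1a2, Col3a1, Pdgfrb, Vim, Sparc, Dcn and Lum were detected in every group, with a summed level of 10997 to 13276 TPM (a unit that also divides by gene length) in Kitl_OE, 3310 to 4037 in Egfp_OE, 4456 to 9603 in shKitl and 3557 to 4643 in shCtrl. Of the 8 markers 6 were higher in Kitl_OE than in Egfp_OE by the test used below, and none passed in shKitl against shCtrl; the part of this in the results was not tested. In bulk RNA, a change in the number of cells that carry a transcript and a change in its amount per cell cannot be told apart.

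By edgeR's quasi-likelihood test with Benjamini-Hochberg adjustment over all genes, 6 of the 10 genes passed an adjusted p of 0.05 in Kitl_OE against Egfp_OE, Bmp4, Eng and Smad7 higher and Grem1, Bmp2 and Bmp6 lower. Of all tested genes, 34.3% passed in that comparison, 15.4% higher and 18.9% lower. The 3 Kitl_OE libraries lay apart from the 3 Egfp_OE libraries for 8 of the 10 genes, 5 higher (24.9% of all genes) and 3 lower (25.6% of all genes). The median log2 fold change was 0.50 for the 10 genes and -0.07 for all genes. In shKitl against shCtrl none of the 10 passed, and edgeR called 0% of all genes. The targeted gene Kitl did not pass there either (log2 -1.46, SE 0.26, adjusted p = 0.121), though its shKitl libraries lay below all shCtrl libraries. At an unadjusted p of 0.05 edgeR's test gave 4 of the 10 (Bmp2, Bmp4, Eng and Id3) and 2417 of all genes. DESeq2 called Bmp4 alone of the 10 and 452 of all genes. For none of the 10 did the shKitl and shCtrl libraries lie apart, as they did for 19.7% of all genes (11% higher and 8.64% lower). The median log2 fold change there was -0.04 for the 10 genes and 0.05 for all genes.

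**Figure D1:**
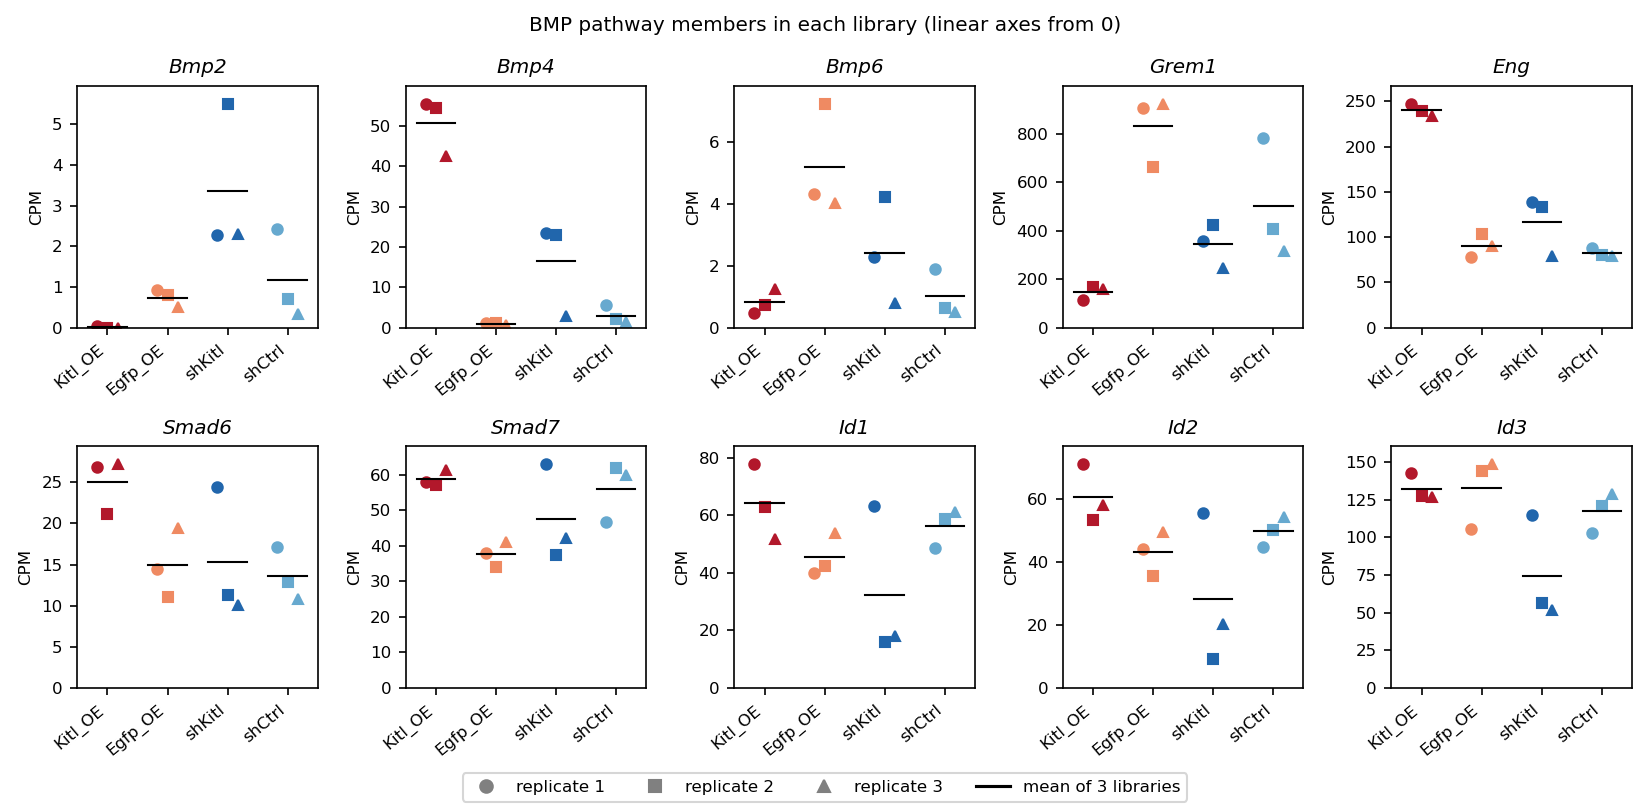
CPM of each of the 10 genes in the 12 libraries, by group, on linear axes from 0; symbols mark replicates and bars the mean of 3 libraries. The 3 Kitl_OE libraries stand at 42.4 to 55.5 CPM for Bmp4 and at 116 to 166 CPM for Grem1, and in shKitl cells Id1, Id2 and Id3 are high in replicate 1 and low in replicates 2 and 3.

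Bmp4, a ligand that patterns mesoderm and acts on mesenchymal precursors (ENSMUSG00000021835, chromosome 14, 46383520 to 46390669, minus strand, GRCm38), stood at 55.5, 54.5 and 42.4 CPM in Kitl_OE cells, against 1.09, 1.24 and 0.704 CPM in Egfp_OE cells. All 3 Kitl_OE libraries lay far above all 3 Egfp_OE libraries. The means were 50.8 ± 7.25 CPM in Kitl_OE and 1.01 ± 0.276 CPM in Egfp_OE (SD, n = 3 each), a 50.2-fold rise (log2 5.65, SE 0.79, adjusted p = 0.00035). In shKitl cells Bmp4 stood at 23.5, 23.0 and 2.84 CPM, against 5.56, 2.01 and 1.31 CPM in shCtrl cells. Replicates 1 and 2 of shKitl were above every control library, while replicate 3 lay inside the control range. That difference had a log2 fold change of 2.46 (SE 0.68, adjusted p = 0.205) and passed with DESeq2 (2.42, adjusted p = 0.0117) and without shKitl replicate 3 (2.96, adjusted p = 0.0269). The range of adjusted p across the other settings was 0.0117 to 0.999925. The Kitl_OE libraries also lay above those of shKitl, the next in order of mean, a pair that was not tested.

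Bmp2, the closest relative of Bmp4 (ENSMUSG00000027358, chromosome 2, 133552159 to 133562885, plus strand), was almost absent from Kitl_OE cells, with 1, 0 and 0 counts in the 3 libraries. In Egfp_OE cells it had 32, 20 and 15 counts. Its summed level was 61.5 times as high in Egfp_OE as in Kitl_OE cells, with an exact 95% interval of 10.7 to 2463 that covers counting error only, and it passed the test (adjusted p = 0.0036). On the log2(TPM + 1) scale the call was lost (log2 -0.65, adjusted p = 0.175). In shKitl cells Bmp2 stood at 2.27, 5.51 and 2.31 CPM, against 2.43, 0.709 and 0.339 CPM in shCtrl cells. The groups overlapped through shCtrl replicate 1, and the log2 fold change of 1.51 (SE 0.65) had an adjusted p = 0.295.

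Bmp6, a ligand of another branch of the family (ENSMUSG00000039004, chromosome 13, 38345107 to 38500302, plus strand), stood at 0.467, 0.732 and 1.26 CPM in Kitl_OE cells, against 4.32, 7.25 and 4.02 CPM in Egfp_OE cells. The groups did not overlap, and the log2 fold change was -2.65 (SE 0.66, adjusted p = 0.0101). In the 4 libraries of these groups whose P numbers occur in both (18 and 19) it was -3.22 and did not pass (adjusted p = 0.0517; range over its alternatives 0.000137 to 0.0517). In shKitl cells Bmp6 stood at 2.27, 4.23 and 0.784 CPM, against 1.91, 0.63 and 0.508 CPM in shCtrl cells, an overlap with log2 1.24 (SE 0.64, adjusted p = 0.364). The Kitl_OE values of Bmp6 overlapped those of shCtrl, while all Egfp_OE values lay above the shCtrl values. Of the 3900 exonic bases of Bmp6, 224 are shared with Txndc5 on the opposite strand. Txndc5, a disulfide isomerase gene of the endoplasmic reticulum, had 117661 counts in all against 808 for Bmp6, and it was lower in Kitl_OE cells as well (log2 -0.65, adjusted p = 0.00413). The part of these reads in the values of Bmp6 was not tested.

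Grem1 (ENSMUSG00000074934, chromosome 2, 113746164 to 113758646, minus strand) was the most abundant of the 10 transcripts per length in Egfp_OE, shKitl and shCtrl cells, with means of 589, 250.2 and 383 TPM. In Kitl_OE cells, at 102 TPM, it stood below Id3 (212 TPM), Eng (171), Id1 (158) and Id2 (137). Its CPM values were 116, 166 and 158 in Kitl_OE, against 909, 662 and 925 in Egfp_OE. The means were 147 ± 26.9 CPM in Kitl_OE and 832 ± 147 CPM in Egfp_OE (SD, n = 3 each), a log2 fold change of -2.50 (SE 0.34, adjusted p = 0.000294) that passed in all 23 alternatives. In shKitl cells Grem1 stood at 359, 426 and 246 CPM, against 784, 407 and 316 CPM in shCtrl cells. Here the ranges overlapped and the shCtrl libraries alone spread 2.48-fold (log2 -0.55, SE 0.32, adjusted p = 0.414).

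The levels of ligands and inhibitor were set side by side per length in each library. The summed level of Bmp2, Bmp4 and Bmp6 was 67.9, 72.6 and 58.9 TPM in Kitl_OE, against 7.67, 8.63 and 7.07 TPM in Egfp_OE. Grem1 was 1.11, 1.62 and 1.94 times that sum in Kitl_OE, against 86.3, 42.1 and 105 times in Egfp_OE. No Kitl_OE library came near an Egfp_OE library. In shKitl the ratio was 7.13, 7.52 and 26.4, against 47.5, 71.9 and 85.0 in shCtrl. These ranges did not overlap either, though Bmp2, Bmp4, Bmp6 and Grem1 each overlapped between these groups. The ratios are built from genes already described, so their separation adds no support to the values of those genes. No share of such ratios over all genes was computed. Other ligands and inhibitors, such as Gdf6, Gdf7, Chrd and Chrdl1, do not enter them. These are ratios of transcripts, described without a test, and they say nothing of the amounts of protein.

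**Figure D2:**
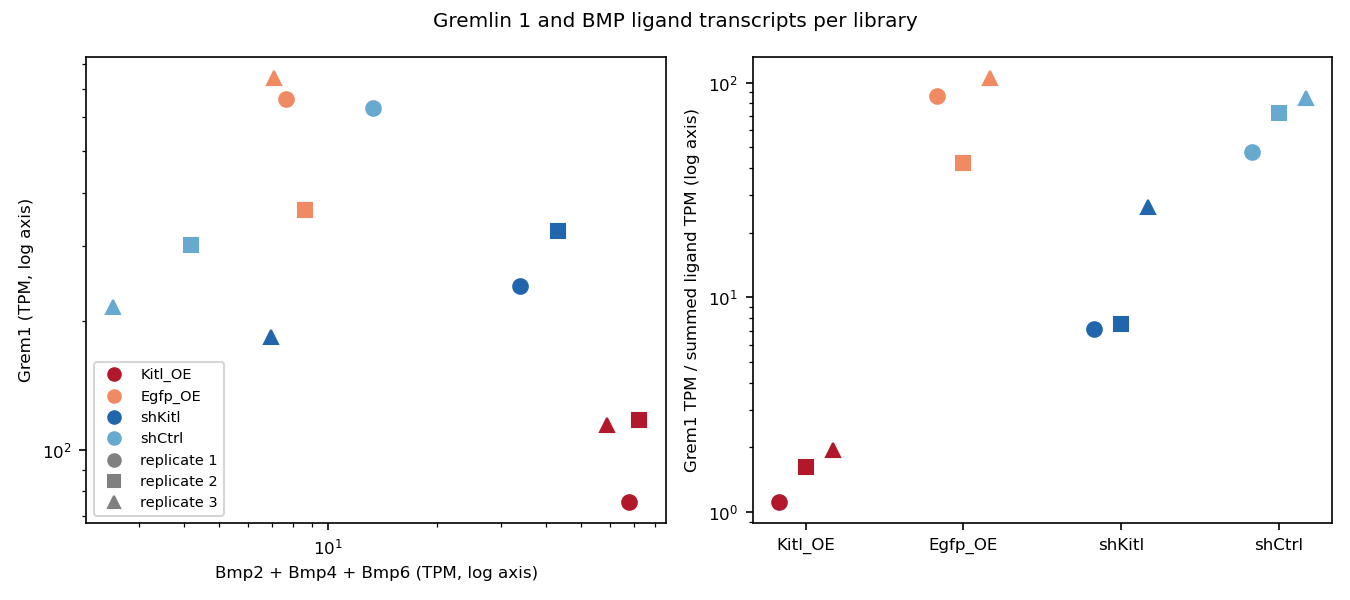
Left, Grem1 against the summed ligands Bmp2, Bmp4 and Bmp6 in each library, in TPM on log axes; right, their ratio by group on a log axis. Colours mark groups and symbols replicates. The Kitl_OE libraries lie at ratios of 1.11 to 1.94 and those of Egfp_OE at 42.1 to 105.

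Eng, on chromosome 2 (ENSMUSG00000026814, 32646595 to 32682669, plus strand), stood at 247, 239.7 and 234 CPM in Kitl_OE, against 78.6, 103 and 89.8 CPM in Egfp_OE. The means were 240.3 ± 6.66 CPM in Kitl_OE and 90.5 ± 12.2 CPM in Egfp_OE (SD, n = 3 each), a 2.66-fold rise (log2 1.41, SE 0.20, adjusted p = 0.000396) that passed in all 23 alternatives. In shKitl cells Eng stood at 138, 134 and 79.3 CPM, against 88.2, 80.0 and 78.9 CPM in shCtrl cells. As with Bmp4, shKitl replicates 1 and 2 lay above the control libraries and replicate 3 among them. The log2 fold change was 0.51 (SE 0.20, adjusted p = 0.268) and 0.72 without shKitl replicate 3 (adjusted p = 0.0432; range over its alternatives 0.0432 to 0.999925).

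Of the 10 endothelial markers listed, 3 were tested; Kdr, the VEGF receptor 2 gene, was higher in Kitl_OE cells (23.2 CPM in Kitl_OE, against 3.60 CPM in Egfp_OE, log2 2.69, adjusted p = 0.000157) and Vwf was lower (1.59 CPM in Kitl_OE, against 5.91 CPM in Egfp_OE, log2 -1.89, adjusted p = 0.0294). Tek, also tested, stood at 0.867 CPM in Kitl_OE and 0.889 CPM in Egfp_OE and did not pass. The defining markers Pecam1 and Cdh5 had 13 and 2 counts in the Kitl_OE group, against 15 and 19 in the Egfp_OE group. The summed level of the list was 7.78 to 9.52 TPM in Kitl_OE, 2.78 to 3.39 in Egfp_OE, 3.56 to 7.46 in shKitl and 2.45 to 4.43 in shCtrl, with 3, 2, 2 and 2 markers without a count in the same order of groups. In that order, only 1, 2, 1 and 1 of the 10 markers reached a mean of 1 TPM, so few genes make up each sum. The part of these cells, if present, in the values of Eng was not tested. Acvrl1, the gene of the receptor that endoglin assists, had 3.01 ± 1.24 CPM in Kitl_OE and 1.62 ± 0.722 CPM in Egfp_OE and did not pass.

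The stretches before the transcription starts of Bmp4, Grem1 and Eng are shown because these 3 genes, the ligand, the inhibitor and the coreceptor, kept their calls in Kitl_OE against Egfp_OE in all 23 alternatives. They lie at chr14:46390670-46390919 (minus strand), chr2:113758649-113758898 (minus strand) and chr2:32646345-32646594 (plus strand). Each runs over the 250 bases before the RefSeq start (GRCm38.p6), 5′ to 3′ along the gene. Capitals mark GGCGCC, a GC-rich element bound by SMAD1 and SMAD5, and CAGAC or its complement GTCTG, a SMAD-binding element.
Bmp4: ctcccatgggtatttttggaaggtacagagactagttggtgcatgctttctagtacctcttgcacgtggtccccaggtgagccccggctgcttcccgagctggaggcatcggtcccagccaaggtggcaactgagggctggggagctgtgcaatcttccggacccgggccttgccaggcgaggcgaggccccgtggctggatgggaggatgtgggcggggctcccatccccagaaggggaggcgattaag
Grem1: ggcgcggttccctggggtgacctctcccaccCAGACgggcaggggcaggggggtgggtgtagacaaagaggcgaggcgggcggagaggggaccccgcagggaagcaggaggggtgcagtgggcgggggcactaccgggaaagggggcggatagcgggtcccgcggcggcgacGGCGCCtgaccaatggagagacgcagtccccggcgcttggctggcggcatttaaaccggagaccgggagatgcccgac
Eng: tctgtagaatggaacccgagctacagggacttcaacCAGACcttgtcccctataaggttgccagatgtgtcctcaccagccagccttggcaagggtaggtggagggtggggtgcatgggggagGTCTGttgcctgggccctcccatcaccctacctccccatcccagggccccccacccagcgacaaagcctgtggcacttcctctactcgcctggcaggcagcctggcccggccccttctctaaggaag

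Both motifs were searched on both strands, and they share no overlap in these stretches. The Grem1 stretch held 1 GGCGCC and 1 CAGAC, that of Eng 2 matches to CAGAC, one on each strand, and that of Bmp4 neither. Of 32851 mouse promoter stretches of the same length, 9.59% held GGCGCC and 42.2% held CAGAC. Among the other genes whose stretch was kept, Id2 held 1 GGCGCC, Id3 2 and Bmp6 1 match to CAGAC, and Smad6 neither. A match is a match of letters only.

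Smad6 and Smad7 encode the SMADs that block the receptors and are themselves induced by the pathway. Smad7 (ENSMUSG00000025880, chromosome 18, 75367529 to 75395935, plus strand), which also blocks the TGF-beta receptors, stood at 57.9, 57.1 and 61.4 CPM in Kitl_OE, against 38.1, 34.0 and 41.0 CPM in Egfp_OE. The groups did not overlap, and the gene passed (log2 0.64, SE 0.20, adjusted p = 0.0267). The call was lost without Egfp_OE replicate 1 or 2 or without any 1 of the 3 Kitl_OE replicates (log2 0.59 to 0.67), with spike-in scaling (0.66, adjusted p = 0.309), with library totals (0.55, adjusted p = 0.0502), on the log2(TPM + 1) scale (0.64, adjusted p = 0.0517) and in the libraries with P numbers in both groups (0.62, adjusted p = 0.127). Smad6 (ENSMUSG00000036867, chromosome 9, 63953076 to 64022059, minus strand), which acts mainly on the BMP branch, stood at 26.8, 21.2 and 27.2 CPM in Kitl_OE, against 14.4, 11.01 and 19.5 CPM in Egfp_OE. These ranges did not overlap either, as for 50.5% of all genes in one direction or the other, but Smad6 did not pass (log2 0.74, SE 0.33, adjusted p = 0.107; 0.0415 without shKitl replicate 1, range over its alternatives 0.0415 to 0.39).

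In the hairpin lines Smad6 stood at 24.4, 11.3 and 10.1 CPM in shKitl, against 17.1, 12.8 and 10.8 CPM in shCtrl (log2 0.17, SE 0.33, adjusted p = 0.839). Its sign turned without shKitl replicate 1 (log2 -0.34). Smad7 stood at 62.9, 37.3 and 42.2 CPM in shKitl, against 46.7, 61.8 and 59.8 CPM in shCtrl (log2 -0.24, SE 0.20, adjusted p = 0.563). For both genes shKitl replicate 1 was the highest of its group.

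The Id genes are classic direct targets of BMP-SMAD signalling, and none of the 3 passed in Kitl_OE cells. Id1 (ENSMUSG00000042745, chromosome 2, 152736251 to 152737410, plus strand) stood at 77.7, 62.8 and 51.8 CPM in Kitl_OE, against 39.99, 42.4 and 53.8 CPM in Egfp_OE, an overlap with log2 0.50 (SE 0.42, adjusted p = 0.392). Id2 (ENSMUSG00000020644, chromosome 12, 25093799 to 25097140, minus strand) stood at 71.0, 53.2 and 58.1 CPM in Kitl_OE, against 44.2, 35.6 and 49.5 CPM in Egfp_OE, with no overlap but no call (log2 0.50, SE 0.46, adjusted p = 0.437). Id3 (ENSMUSG00000007872, chromosome 4, 136143497 to 136145755, plus strand) stood at 143, 128 and 127 CPM in Kitl_OE, against 105, 144 and 149 CPM in Egfp_OE, with means of 132 CPM in Kitl_OE and 133 CPM in Egfp_OE (log2 -0.00317, SE 0.27, adjusted p = 0.994). A missed threshold does not show that the levels were equal: the standard errors of these differences are 0.27 to 0.46 on the log2 scale.

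In shKitl cells the 3 Id genes split the libraries. Id1 stood at 63.0, 15.97 and 17.99 CPM in shKitl, against 48.6, 58.7 and 61.2 CPM in shCtrl. Id2 stood at 55.5, 9.04 and 20.3 CPM in shKitl, against 44.6, 50.3 and 54.4 CPM in shCtrl. Id3 stood at 115, 56.1 and 51.6 CPM in shKitl, against 103, 121 and 129 CPM in shCtrl. Replicate 1 of shKitl lay above all 3 control libraries for Id1 and Id2 and among them for Id3, and replicates 2 and 3 lay below all 3 for each gene. With all libraries the log2 fold changes were -0.80 for Id1 (SE 0.43, adjusted p = 0.376), -0.82 for Id2 (SE 0.47, adjusted p = 0.399) and -0.66 for Id3 (SE 0.27, adjusted p = 0.284). Without shKitl replicate 1 they were -1.73 for Id1, -1.76 for Id2 and -1.13 for Id3 and still did not pass.

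Replicate 1 of shKitl carries P number 13, which no shCtrl library shares. At P number 14, shKitl replicate 2 held 15.97 CPM of Id1, against 48.6 CPM in shCtrl replicate 1, and at P number 15 shKitl replicate 3 held 17.99 CPM, against 58.7 CPM in shCtrl replicate 2. For Bmp4 the same pairs read 23.0 CPM in shKitl against 5.56 CPM in shCtrl, and 2.84 CPM in shKitl against 2.01 CPM in shCtrl. Kitl was about as low in shKitl replicate 1 (25.1 CPM) as in replicates 2 and 3 (25.5 and 30.3 CPM). The cause of the high Id levels of shKitl replicate 1, a single library, was not tested. In the 4 libraries with P numbers 14 and 15 the log2 fold changes were -1.66 for Id1, -1.69 for Id2 and -1.06 for Id3, with an adjusted p of 0.999925 each.

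Replicate 1 of shKitl was compared with the other two over a wider set of targets. Over the 5 genes Id1, Id2, Id3, Smad6 and Smad7 and the 6 further targets listed (Id4, Atoh8, Msx1, Msx2, Dlx5 and Hey1), replicate 1 was the highest of the 3 shKitl libraries for 9 of 11, and at least 1.5 times both others for 8. Of all tested genes it was the highest for 27.2% and 1.5 times both others for 4.64%. Atoh8, a helix-loop-helix factor gene, stood at 17.3, 4.81 and 6.50 CPM in shKitl, against 22.4, 19.5 and 17.4 CPM in shCtrl. This set was put together after the values were seen, and its first 5 genes had already shown the high replicate 1. Its shares therefore cannot support that pattern, and the set gets no test.

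**Figure D3:**
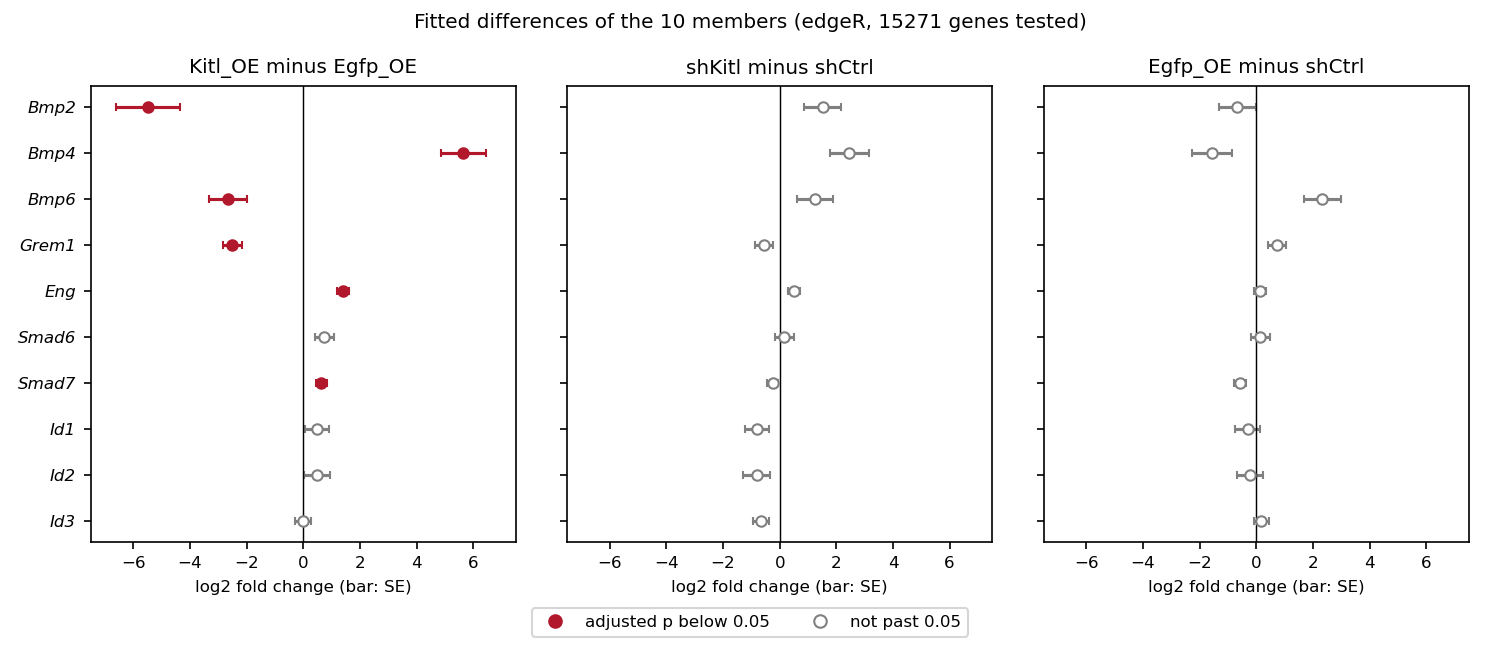
Fitted log2 fold changes of the 10 genes with their standard errors in 3 comparisons; filled points passed an adjusted p of 0.05. In Kitl_OE minus Egfp_OE Bmp4 lies at 5.65 and Grem1 at -2.50, while no gene passed in shKitl minus shCtrl or in Egfp_OE minus shCtrl.

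Whether the fitted changes of the members differed between the 2 designs was tested as the difference of effects, (Kitl_OE minus Egfp_OE) minus (shKitl minus shCtrl). Kitl was raised in one design and lowered in the other, so opposite changes also give a difference. Kitl itself passed (log2 2.52, adjusted p = 0.0011). Of the 10 genes 4 passed, 1 higher (Bmp4) and 3 lower (Bmp2, Bmp6 and Grem1), against 14% of all genes, 4.07% higher and 9.88% lower. Bmp2 had a difference of log2 -6.99 (SE 1.31, adjusted p = 0.00544) and Bmp6 one of -3.89 (SE 0.92, adjusted p = 0.017). Both calls were lost in the libraries with P numbers in both groups (-6.10 and -4.19), that of Bmp2 also on the log2(TPM + 1) scale (-1.61) and that of Bmp6 also with the P number as covariate (-3.38). Both ligands were lower in Kitl_OE than in Egfp_OE, while their fitted changes in shKitl, which did not pass, were above 0. Grem1 had a difference of -1.96 (SE 0.46, adjusted p = 0.0163). That call was lost without shCtrl replicate 2 (-1.78) or Kitl_OE replicate 1 (-1.77), with spike-in scaling (-1.78), with the P number as covariate (-1.62) and in the libraries with P numbers in both groups (-1.67). Bmp4, higher in Kitl_OE and, without a call, in shKitl, differed by 3.19 (SE 0.96, adjusted p = 0.0474), a call lost in 15 of 22 alternatives, where the adjusted p ran from 0.00308 to 0.16.

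For Eng (0.90, adjusted p = 0.0526) and Smad7 (0.88, adjusted p = 0.0564) the difference of effects did not pass in edgeR's test with all libraries. DESeq2 called both with all libraries (Eng 0.94, adjusted p = 0.0112; Smad7 0.92, adjusted p = 0.0217), and edgeR with DESeq2 size factors called Eng (adjusted p = 0.0379). In edgeR's test Eng also passed without shKitl replicate 1 (1.04) or Egfp_OE replicate 2 (1.05), and Smad7 without shKitl replicate 1 (1.14) or shCtrl replicate 1 (1.01). Without shKitl replicate 1 the differences of Id1 (2.22, adjusted p = 0.0011), Id2 (2.26, adjusted p = 0.00593) and Id3 (1.12, adjusted p = 0.016) passed as well, that of Id1 also in the libraries with P numbers in both groups (adjusted p = 0.0198). With all libraries they were 1.29 (SE 0.60, adjusted p = 0.18), 1.31 (SE 0.66, adjusted p = 0.213) and 0.66 (SE 0.38, adjusted p = 0.278).

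Between the control lines, Egfp_OE minus shCtrl, none of the 10 genes passed in edgeR's test, against 1.25% of all genes. An unadjusted p of 0.05 was passed by 4 of them, Bmp4, Bmp6, Grem1 and Smad7, and by 3721 of the 15271 genes tested. DESeq2 called Bmp6 and 1553 of all genes. Bmp6 stood at 5.20 ± 1.78 CPM in Egfp_OE and 1.02 ± 0.775 CPM in shCtrl (SD, n = 3 each; log2 2.33, SE 0.65, adjusted p = 0.0858; 3.17 and adjusted p = 0.0368 without shCtrl replicate 1), with no overlap. Smad7 stood at 37.7 ± 3.50 CPM in Egfp_OE and 56.1 ± 8.23 CPM in shCtrl (log2 -0.57, adjusted p = 0.125), also with no overlap, as for 28.5% of all genes. The Egfp_OE libraries serve in this comparison and in that with Kitl_OE, so the values are not independent. The Kitl_OE level of Smad7, 58.8 ± 2.31 CPM, lay within the shCtrl range, and so did the Kitl_OE mean of Bmp6, 0.82 CPM. Egfp_OE and shCtrl share no P number, so vector, line and P number cannot be told apart between these groups.

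Over the 4 lines the order of means ran Kitl_OE, shKitl, shCtrl, Egfp_OE for Bmp4 and Kitl_OE, shKitl, Egfp_OE, shCtrl for Eng and Smad6. It ran Egfp_OE, shCtrl, shKitl, Kitl_OE for Grem1, and Kitl_OE, shCtrl, Egfp_OE, shKitl for Id1 and Id2. For Id1, Id2, Id3, Smad6, Smad7 and Bmp6 every pair of neighbours in its order overlapped. Steps without overlap were Kitl_OE over shKitl for Bmp4 and Eng, shKitl over Kitl_OE for Grem1, Egfp_OE over Kitl_OE for Bmp2 and shCtrl over Egfp_OE for Bmp4. Of all genes, 25.6% lay lower without overlap in Kitl_OE than in Egfp_OE, and 13.9% in Egfp_OE than in shCtrl. Kitl_OE and shKitl were not tested against each other. No share over all genes was computed for that pair, so its steps cannot be read as particular to these genes.

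The spread among the 3 libraries of a group was described by the ratio of the highest to the lowest. In Kitl_OE cells the highest library exceeded the lowest 1.06-fold for Eng and 1.076-fold for Smad7, where the median gene with a mean CPM of at least 5 gave 1.16-fold. Of the 9 genes with counts in all 3 libraries, Bmp6 (2.71-fold), Id1 (1.502-fold), Grem1 (1.43-fold), Id2 (1.33-fold), Bmp4 (1.31-fold) and Smad6 (1.28-fold) lay above that median. In Egfp_OE cells the median was 1.62-fold, the largest of any group. Bmp2 (1.82-fold), Bmp6 (1.80-fold), Smad6 (1.77-fold) and Bmp4 (1.76-fold) lay above it there, and the other genes below it. In shKitl cells the range was 8.29-fold for Bmp4, 6.14-fold for Id2, 5.395-fold for Bmp6 and 3.95-fold for Id1, against a median of 1.38-fold. In shCtrl cells the ligands spread most, Bmp2 7.18-fold, Bmp4 4.23-fold and Bmp6 3.75-fold, while Id1, Id2 and Id3 gave 1.26-fold, 1.22-fold and 1.25-fold against a median of 1.24-fold.

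The rest of the pathway was covered by 7 lists of 61 genes, of which 47 were tested. In Kitl_OE against Egfp_OE 10 of these passed higher and 8 lower, 38.3% beside the 34.3% of all genes. Of 11 further ligands, 3 were tested and 2 rose. Gdf7 had 114 counts in the Kitl_OE group and 1 in the Egfp_OE group, a ratio of 124 (exact 95% interval 21.9 to 4951, counting error only; adjusted p = 0.000913), and Gdf6 stood at 1.76 CPM in Kitl_OE and 0.171 CPM in Egfp_OE (log2 3.40, adjusted p = 0.0214). The call of Gdf6 was lost without Egfp_OE replicate 1 (3.07) or 3 (3.04) or Kitl_OE replicate 3 (2.86) and in the libraries with P numbers in both groups (2.51). The Egfp_OE group held only 14 counts of it. Both encode growth and differentiation factors of the BMP family.

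Of 16 secreted inhibitors and modulators 11 were tested, 3 rose and 1 fell. Chordin (Chrd), which binds BMPs, rose to 17.6 CPM in Kitl_OE, against 3.58 CPM in Egfp_OE (log2 2.30, adjusted p = 0.0108; call lost in the libraries with P numbers in both groups, 2.33), and its relative Chrdl1 fell to 0.413 CPM in Kitl_OE, against 7.26 CPM in Egfp_OE (log2 -4.12, adjusted p = 0.00209). Fstl3, a follistatin-like binder of activins, rose by log2 2.90 (adjusted p = 0.000764), and Crim1, a membrane protein with BMP-binding repeats, rose by log2 2.00 (adjusted p = 0.000755). Inhibitor genes moved in both directions.

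Of 12 receptors and coreceptors 11 were tested; none rose and 2 fell. Tgfbr3, the coreceptor betaglycan, fell to 28.5 CPM in Kitl_OE, against 151 CPM in Egfp_OE (log2 -2.41, SE 0.25, adjusted p = 5.04e-05), the opposite direction to Eng, which has a related structure. Rgma, a repulsive guidance molecule that acts as a BMP coreceptor, fell by log2 1.00 (adjusted p = 0.0355). That call was lost without Egfp_OE replicate 1 or 3 or any 1 of the Kitl_OE replicates (log2 -1.04 to -0.83), with the replicate block (-1.0002, adjusted p = 0.0515), the P number as covariate (-1.03, adjusted p = 0.0529), spike-in scaling and both TPM scales, and in the libraries with P numbers in both groups. Bmpr2, the main type II BMP receptor gene, stood at 116 ± 15.4 CPM in Kitl_OE and 88.7 ± 32.1 CPM in Egfp_OE and did not pass.

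Of 9 SMADs and regulators, all tested, 3 rose and 1 fell, each by less than log2 1. Smad4, the common SMAD, rose by log2 0.50 (adjusted p = 0.0098) and Smad1 by log2 0.49 (adjusted p = 0.0233), while Smad5 fell by log2 0.65 (adjusted p = 0.00526). Tob1, which binds SMADs, rose by log2 0.72 (adjusted p = 0.0376). The calls of Smad1 and Tob1 were lost without Egfp_OE replicate 3 or Kitl_OE replicate 1 or 2, that of Smad1 also without Kitl_OE replicate 3 and that of Tob1 also without Egfp_OE replicate 1. All 4 calls were lost with spike-in scaling, on both TPM scales and in the libraries with P numbers in both groups, those of Smad1 and Tob1 with library totals, and those of Smad1 and Smad4 with every gene with any count.

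Of the 6 other BMP-SMAD targets, all tested, 2 rose and 2 fell. Msx1, a homeobox gene, fell to 0.0958 CPM in Kitl_OE, against 2.66 CPM in Egfp_OE (log2 -4.72, adjusted p = 1.29e-05; only 8 counts in the Kitl_OE group), and Id4, the fourth Id gene, fell to 0.805 CPM in Kitl_OE, against 8.15 CPM in Egfp_OE (log2 -3.32, adjusted p = 0.000523). Msx2 rose by log2 2.14 (adjusted p = 0.00222) and Hey1 by 1.53 (adjusted p = 0.029), both at levels of 1.49 CPM or less; the call of Hey1 was lost without Egfp_OE replicate 1 or 3 or Kitl_OE replicate 1 or 3 (1.30 to 1.60), with spike-in scaling and in the libraries with P numbers in both groups. The call of Id4 and those of Msx1 and Msx2 held in all 23 alternatives. Of 3 helix-loop-helix partners of ID proteins, Tcf4 fell by log2 1.34 (adjusted p = 0.00272). Of 4 genes of the SMAD2/3 arm, Tgfbr2, the type II TGF-beta receptor gene, fell by log2 0.87 (adjusted p = 0.0316), a call lost without Egfp_OE replicate 1 or any 1 of the Kitl_OE replicates (-0.91 to -0.83), with the P number as covariate (-0.77, adjusted p = 0.0799), spike-in scaling (adjusted p = 0.236) and both TPM scales, and in the libraries with P numbers in both groups.

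In shKitl against shCtrl none of the 47 tested genes passed. Between the control lines 2 of the 47 (4.26%, beside 1.25% of all genes) were lower in Egfp_OE and none higher. Msx1 was among them (log2 -1.84, adjusted p = 0.0247), and its call was lost without shCtrl replicate 2 (-1.75) or 3 (-1.74) or Egfp_OE replicate 3 (-1.77), among others. In the difference of effects 4 of the 47 were higher and 7 lower.

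**Figure D4:**
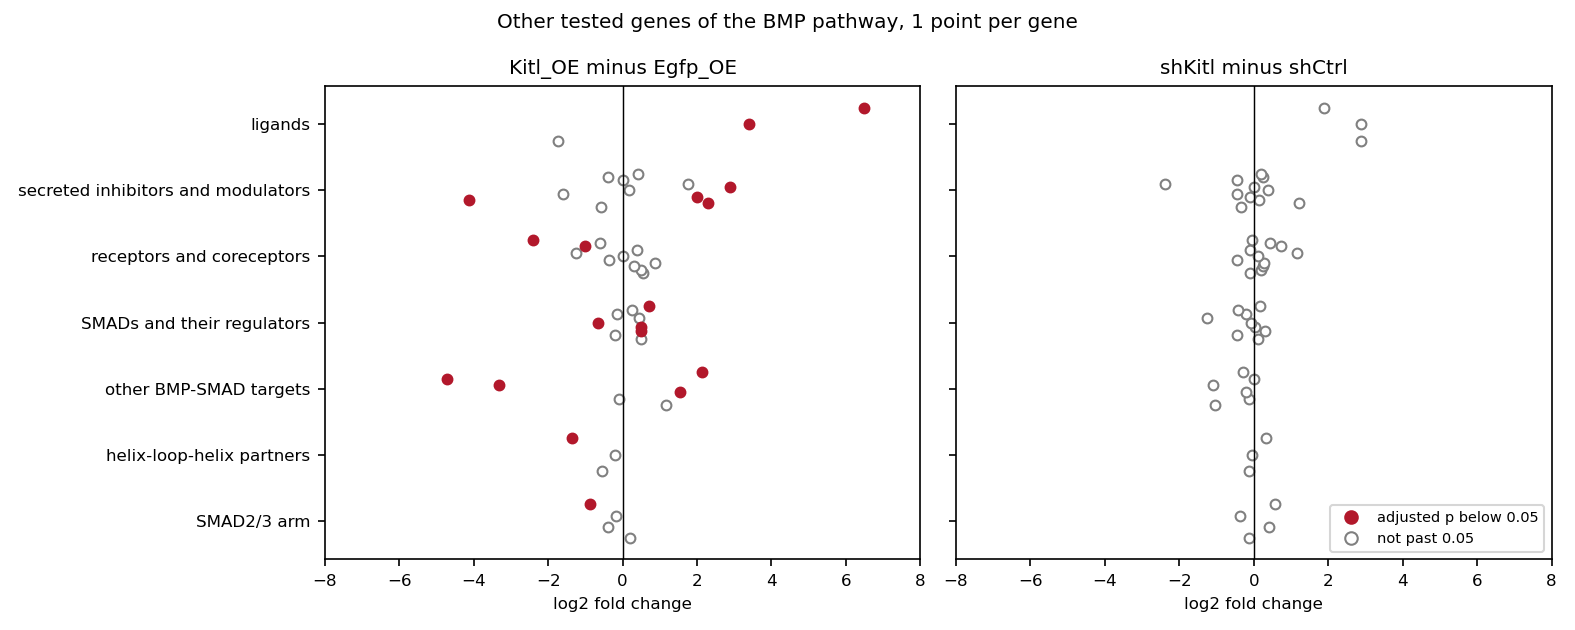
Log2 fold changes of the 47 tested genes of the 7 lists, 1 point per gene, in Kitl_OE minus Egfp_OE (left) and shKitl minus shCtrl (right); filled points passed an adjusted p of 0.05. On the left 10 points are filled above 0 and 8 below, and on the right none.

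The profiles most like those of Eng and Id1 were sought among 10494 other genes with a mean of at least 5 CPM, by the root mean square difference of centred log2(CPM + 1) values over the 12 libraries. For Eng, whose own profile had a standard deviation of 0.637, near profiles were those of Chst12 at 0.106 and Fam217b at 0.146. Chst12, a chondroitin sulfotransferase gene, averaged 76.5 CPM in Kitl_OE, 31.9 in Egfp_OE, 38.2 in shKitl and 27.5 in shCtrl. For Id1, with a standard deviation of 0.66, the nearest were Pxdc1 at 0.39, mt-Rnr2 at 0.441 and Tmem183a at 0.446. The 12 libraries share 4 lines, so that likeness over them compares mainly the 4 group levels.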

How the data were processed

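PolyA-selected RNA of 12 libraries of ImPSC-1 derivatives was sequenced after NEBNext Ultra II library preparation, per the labels' protocols. The authors deposited a table of raw counts per gene. The submitters' processing notes list STAR 2.5.2b, featureCounts, Subread 1.5.2 and DESeq2 as tools and GRCm38 as the build. They also deposited TPM values, which by their sums are scaled over genes and spike-ins together. Gene lengths, the strand setting and the annotation release were not given in the sources used here. Reads of overlapping genes on opposite strands therefore cannot be told apart. Groups and replicate numbers came from the sample titles.

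Of 49763 entries, 92 were ERCC spike-ins, which entered neither library sizes nor tests. Genes were kept by filterByExpr (15271). Libraries were scaled by TMM, and edgeR 4.0.16 (R 4.3.3) fitted a robust quasi-likelihood model with 1 coefficient per group to all 12 libraries (biological coefficient of variation 0.292). The fit was tried on simulated data with a smaller spread than these data and with no changes in genes of low level. That trial therefore does not cover this spread or genes with few counts. Benjamini-Hochberg adjustment covered every tested gene, with a threshold of 0.05. CPM uses the TMM-scaled library size. Each standard error was the log2 fold change divided by the root of its F statistic. With 24979742 to 33517686 counts per library, counting error was small except for genes with few counts; an exact permutation test of 3 against 3 libraries cannot give a two-sided p below 0.1 and was not used.

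The 10 genes and the 7 pathway lists were chosen with earlier results of these data known. Named by rule were the 10 genes, up to 4 called genes of each list with the largest change, and the 3 genes nearest to Eng and to Id1; a gene of the pathway lists and a gene near Eng are not reported here. Acvrl1, Bmpr2, Atoh8, Kdr, Vwf, Pecam1, Cdh5 and Txndc5 were named after their values were seen. Gene coordinates are from GENCODE M21, which held 49412 of the 49671 gene IDs. Promoter sequences are from RefSeq (GRCm38.p6), and stretches of 7 of the 10 genes were kept. Promoters on chromosome 18, where Smad7 lies, were left out for the 10 genes but not removed from the 32851 stretches. Alternatives were DESeq2 size factors, library totals, spike-in totals, every gene with any count, DESeq2 1.42.0, limma 3.58.1 on log2(TPM + 1) and log2(TPM + 0.1), a block for the replicate number, a P number covariate, fits to the compared groups alone, and leaving out single libraries. An alternative restricted to libraries with a P number found in both groups was chosen after seeing the data.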

Additional observations from a re-analysis of the deposited data

Results flagged for a closer look

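The difference between the effect of Kitl overexpression and that of Kitl knockdown passed an adjusted p of 0.05 in edgeR's test for 4 of the 10 genes, 1 higher and 3 lower, beside 14% of all genes, 4.07% higher and 9.88% lower. The difference was log2 -6.99 for Bmp2, 3.19 for Bmp4, -3.89 for Bmp6 and -1.96 for Grem1. The call of Bmp4 was lost in 15 of 22 alternatives, that of Grem1 in 5 and those of Bmp2 and Bmp6 in 2 each. Bmp2 had only 1 count in the Kitl_OE group and 67 in the Egfp_OE group.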

How the results depend on the processing

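Every call and sign of the 10 genes in Kitl_OE against Egfp_OE held in the alternatives run, except those of Bmp2, Bmp6, Smad6 and Smad7 named above and the sign of Id3. The cause of the changes below was not tested. With spike-in scaling, 2351 genes were called in that comparison, 919 in the difference of effects (162 higher and 757 lower, against 622 and 1509 with TMM) and 10 between the control lines (0 higher and 10 lower, against 78 and 113). That scaling moved the median log2 fold change of all genes by -0.11 in shKitl against shCtrl, 0.07 in Kitl_OE against Egfp_OE, 0.18 in the difference and -0.40 between the control lines, where Eng (-0.30), Smad6 (-0.16) and Id3 (-0.23) turned sign. Library totals moved the median of the difference by -0.10. In shKitl against shCtrl, 23 genes were called with every gene with any count, 452 with DESeq2, 7 on the log2(TPM + 1) scale, and 0 to 279 with a library left out (279 without shKitl replicate 3, 86 without shCtrl replicate 1 or Egfp_OE replicate 2). Of the 10 genes, 1 was called higher there with DESeq2 and 0 to 2 with a library left out. Smad6 turned sign there with spike-in scaling (-0.0151), the P number as covariate (-0.0376) and the libraries with P numbers in both groups (-0.48), and ran from -0.34 to 0.39 with a library left out.

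In Kitl_OE against Egfp_OE, 2268 genes were called in the libraries with P numbers in both groups and 3483 to 6114 with a library left out (3483 without Kitl_OE replicate 1). Id3 turned sign there with spike-in scaling (0.0717), every gene with any count (0.0311), the log2(TPM + 1) scale (0.0297), the log2(TPM + 0.1) scale (0.02997) and the P number as covariate (0.0631), and ran from -0.13 to 0.10 with a library left out. In the difference of effects, the members called higher were 2 with DESeq2 size factors, 3 with DESeq2, 0 with library totals, every gene with any count and both TPM scales, and 0 to 5 with a library left out (5 without shKitl replicate 1). The members called lower were 1 with the P number as covariate, 0 in the libraries with P numbers in both groups and 2 to 3 with a library left out. The genes called there were 1291 on the log2(TPM + 1) scale, 608 in the libraries with P numbers in both groups and 1245 to 2842 with a library left out (1254 without shCtrl replicate 2, and 1245, 1369 and 1374 without Kitl_OE replicates 1, 2 and 3).

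Between the control lines, 349 genes were called with every gene with any count, 1553 with DESeq2, 104 on the log2(TPM + 0.1) scale, 0 with the P number as covariate and with only the groups compared, and 0 to 790 with a library left out (790 without shCtrl replicate 1, 2 without shCtrl replicate 2 or 3, 0 without Egfp_OE replicate 3). Of the 10 genes, 1 was called higher there with DESeq2 and 0 to 2 with a library left out (Bmp6 and Grem1 without shCtrl replicate 1). With the P number as covariate Bmp2 (1.64), Bmp4 (0.78), Id1 (0.39) and Id2 (0.36) turned sign. With a library left out Bmp2 ran from -1.09 to 0.48 and Smad6 from -0.10 to 0.34.

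Replicate numbers did not pair the libraries: deviations of libraries with the same number correlated at 0.13, -0.44 and 0.60 between shKitl and shCtrl, at 0.05, 0.31 and 0.25 between Kitl_OE and Egfp_OE, and at -0.02, -0.10 and 0.29 between Egfp_OE and shCtrl. With the replicate block 82 genes were called between the control lines against 191 without it; the counts in the other comparisons stayed within 1.5 times, and no call of the 10 genes changed. Libraries with the same P number correlated at 0.61 (P number 14) and 0.52 (15) between shKitl and shCtrl, and at -0.0023 (18) and -0.28 (19) between Kitl_OE and Egfp_OE. However, shKitl replicate 3 (P number 15) correlated more strongly with shCtrl replicate 3 (P number 16), at 0.60, than with its match. Deviations from a group mean are tied to each other, so these values are not independent. Depth limited Bmp2, Gdf6, Gdf7, Msx1, Pecam1 and Cdh5 among the genes named, each with under 20 counts in at least 1 group.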
